A study of Mus musculus with 12 samples.

Results

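The collagen chain genes were followed in a table of H3K27ac ChIP-seq signal from 4T1, a metastatic cell line of mouse mammary carcinoma. H3K27ac is histone H3 acetylated at a lysine of its tail, a mark of promoters and enhancers in use. A gene was a member when its whole symbol read Col, a number, a and a number, as in Col1a1. This gave 32 of the 22264 gene symbols and 142 of the 126464 intervals of enriched signal that the authors assigned to genes. The cells received 1 of 6 treatments for 48 h, with 2 libraries each and 12 in all. They were vehicle, etomoxir at 50 µM, etomoxir with SB204990 at 50 µM, and each of these 3 with acetate at 5 mM. Etomoxir inhibits carnitine palmitoyltransferase 1, which lets long-chain fatty acids into mitochondria, and SB204990 inhibits ATP citrate lyase, which makes acetyl-CoA from citrate. Acetate can itself be turned into acetyl-CoA, the acetyl donor of histones, so the design asks whether these sources of acetyl groups set H3K27ac. SB204990 was given only together with etomoxir, all libraries come from 1 cell line, and no group lacked the human chromatin (7.5%) that was added as a spike-in. The libraries are called set 1 and set 2 by the suffix of their names, which the labels do not explain. Nothing in the labels says that they came from separate cultures, so the p-values measure the spread between these libraries, which may be technical.

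Collagens are the main structural proteins of the extracellular matrix. Each molecule is a helix wound from alpha chains, and each chain has its own gene. Fibrillar collagens such as types I, III and V form the fibres of connective tissue, type IV forms the sheet of the basement membrane, and FACIT collagens (types IX, XII and XVI among others) sit on fibre surfaces. In mammary tumours fibroblasts are the main source of fibrillar collagen, while epithelial cells contribute to the basement membrane, which carcinoma cells breach when they invade. H3K27ac reports on the chromatin of a gene and not on how much collagen a cell makes.

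By the GENCODE annotation of mm10, 44 genes carry a collagen chain name, and 12 of them had no interval assigned (Col10a1, Col14a1, Col19a1, Col20a1, Col22a1, Col26a1, Col4a3, Col4a4, Col5a3, Col6a2, Col9a1 and Col9a3). The transcription start lay inside an interval for 15 of the 44 collagen genes, which is 34.1%, against 52.0% of all 21924 protein-coding genes. For 10 of these 15 the interval was assigned to the gene itself. For the other 5 it carried another gene's name: the Col4a2 start lay in a Col4a1 interval, that of Col4a6 in a Col4a5 interval, and those of Col5a1, Col24a1 and Col6a1 in intervals named after the neighbouring genes 2810430I11Rik, 9530034A14Rik and Gm48276.

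RefSeq's promoter table (GRCm38.p6, the assembly called mm10) matched 35 collagen genes with 38 promoters, of which 14 started inside an interval. The 250 bases before the start are shown for 6 genes, 5′ to 3′ on the strand of the gene, to let starts with the mark be read beside starts without it. Capitals mark matches on either strand to the TATA box (TATAAA), the CCAAT box (CCAAT, or ATTGG in reverse) and the GC box (GGGCGG, or CCGCCC in reverse). The first 4 starts lay in an interval and the last 2 in none.
Col5a1 (chr2:27886175-27886424, plus strand): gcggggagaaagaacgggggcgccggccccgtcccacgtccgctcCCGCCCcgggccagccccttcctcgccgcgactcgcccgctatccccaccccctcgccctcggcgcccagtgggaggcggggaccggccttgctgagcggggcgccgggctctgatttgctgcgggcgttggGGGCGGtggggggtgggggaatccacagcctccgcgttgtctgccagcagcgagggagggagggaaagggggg
Col7a1 (chr9:108953336-108953585, plus strand): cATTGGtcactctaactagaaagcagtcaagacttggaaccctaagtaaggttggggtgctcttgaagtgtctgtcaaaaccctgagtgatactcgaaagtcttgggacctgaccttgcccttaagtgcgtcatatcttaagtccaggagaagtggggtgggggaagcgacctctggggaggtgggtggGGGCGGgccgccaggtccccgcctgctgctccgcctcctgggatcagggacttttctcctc
Col8a1 (chr16:57754738-57754987, minus strand): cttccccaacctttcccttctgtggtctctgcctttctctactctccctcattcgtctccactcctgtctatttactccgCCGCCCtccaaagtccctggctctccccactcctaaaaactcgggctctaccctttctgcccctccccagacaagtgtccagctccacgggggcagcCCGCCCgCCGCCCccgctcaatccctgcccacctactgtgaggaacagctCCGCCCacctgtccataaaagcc
Col4a6 (chrX:141474077-141474326, minus strand): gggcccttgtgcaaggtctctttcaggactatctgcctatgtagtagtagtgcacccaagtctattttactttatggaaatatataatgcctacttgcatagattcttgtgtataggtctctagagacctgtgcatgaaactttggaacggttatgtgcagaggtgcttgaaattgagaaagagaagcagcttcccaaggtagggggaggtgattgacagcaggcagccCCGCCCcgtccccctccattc
Col3a1 (chr1:45311288-45311537, plus strand): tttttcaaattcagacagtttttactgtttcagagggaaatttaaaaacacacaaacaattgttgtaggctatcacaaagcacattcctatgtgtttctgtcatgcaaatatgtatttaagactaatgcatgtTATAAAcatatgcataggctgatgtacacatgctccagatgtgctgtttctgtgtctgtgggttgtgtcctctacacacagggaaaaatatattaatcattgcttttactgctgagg
Col15a1 (chr4:47207762-47208011, plus strand): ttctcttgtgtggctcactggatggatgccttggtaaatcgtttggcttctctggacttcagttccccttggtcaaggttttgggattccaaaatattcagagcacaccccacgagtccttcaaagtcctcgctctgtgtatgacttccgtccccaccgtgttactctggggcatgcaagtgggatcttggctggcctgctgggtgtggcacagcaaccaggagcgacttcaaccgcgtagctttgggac

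The stretch before Col5a1, the major chain of fibrillar type V collagen, was 76.4% G or C with 28 CpG steps and 2 GC boxes. The one before Col8a1, a chain of the short-chain type VIII collagen, held 4 GC boxes. The stretch before Col3a1, which encodes type III collagen, was 35.2% G or C, held no CpG step and had 1 TATA box. Over all promoters, collagens had a median of 59.0% G or C against 52.4% for all 32851 RefSeq promoters. A GC box stood in 57.9% of the collagen promoters and in 32.7% of all, a CCAAT box in 34.2% and 33.8%, and a TATA box in 13.2% and 12.4%. Among promoters whose start lay in an interval, 10 of 14 collagens (71.4%) and 53.3% of all held a GC box. Among the rest it was 12 of 24 (50.0%) and 15.9%. These are matches of letters in a window, given as a description.

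The values below are scaled reads: the reads in an interval multiplied by the library's spike-in factor, and summed over the intervals assigned to a gene. Reads in intervals ranged from 7179165 to 16676442 per library and the factors from 0.398 to 1. Reads in collagen intervals ranged from 20510 to 48776. Set apart from the rest was the etomoxir + SB204990 library of set 2. It had the fewest reads and a factor of 1, and it held the highest value of the 12 libraries for 3 weak members, Col3a1 (69), Col25a1 (45) and Col6a4 (17), although acetate was absent. Most counts that it enters are therefore also given without it. In this cell line, 6 of 8 genes on a list of mammary carcinoma epithelium had an interval (Krt18 and Krt7 did not), with a summed value of 7800 to 18785 per library. The sums were 467 to 1230 for 7 of 8 fibroblast genes (Fap had no interval) and 1370 to 3611 for 5 of 6 endothelial genes (Tek had none). In the average acetate effect described next, 6 of 6, 6 of 6 and 4 of 5 tested genes of these lists passed, beside 88.2% of all genes, and 6 of 6, 6 of 6 and 5 of 5 without the library set apart above. Their part in the collagen values was not tested.

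The collagen signal was unevenly spread over the genes. Col4a1 alone held 38.3% of the collagen sum, the leading 3 genes (Col4a1, Col18a1 and Col8a1) 67.0%, and the leading 6 genes 81.1%. By class, type IV held 42.1%, the multiplexins (types XV and XVIII, which carry heparan or chondroitin sulphate chains) 17.6%, type VIII 16.1%, type VII 7.39%, FACIT collagens 6.44%, fibrillar collagens 5.98%, transmembrane collagens 3.04%, and type VI with its relatives 1.35%. A sum grows with the length of the intervals. Per kb of interval the mean value was 55.7 scaled reads in Col4a1, 43.5 in Col8a2, 42.9 in Col13a1, 39.4 in Col8a1, 39.3 in Col7a1 and 35.0 in Col18a1. Among the fibrillar genes it was 27.3 in Col1a1, 13.4 in Col5a1 and 6.30 in Col3a1, and genes of other classes such as Col4a6 (9.17) and Col4a2 (19.6) also lay below Col1a1.

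Much of this signal lay in long intervals. The 10 intervals over the start of their own gene held 63.9% of the collagen sum. The table gives a distance from the middle of an interval to a transcript start, so a long interval over a start can count as distant. By this distance, within 5 kb lay 14.8% of the collagen intervals and 10.2% of their summed signal, against 19.4% and 33.9% over all genes. Introns held 58.5% of the collagen intervals (51.5% of all), intergenic stretches 22.5% (29.3% of all), and promoters 6.34% (6.60% of all). The Col4a1 interval (chr8:11240595-11426267, 185673 bp) was the longest in the table and covered the starts of both Col4a1 and Col4a2, the major basement membrane chains. Their neighbouring head-to-head starts could not be told apart in it. The single Col7a1 interval (chr9:108942895-108993608, 50714 bp) also covered the starts of Pfkfb4, Ucn2 and Uqcrc1. For Col9a2, 95.2% of the sum came from an interval at chr4:121011512-121030181 over the start of Smap2. No assigned interval overlapped the gene for Col2a1, Col3a1, Col5a2, Col6a6 and Col9a2. In all, 50 of the 142 intervals lay outside their gene, with 8.53% of the collagen sum. The nearest gene named in the table is thus not shown to be the gene such an interval acts on.

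The main comparison was acetate against no acetate, averaged over cells with no inhibitor, with etomoxir and with etomoxir + SB204990. It was tested with limma on log2(scaled reads + 1), over all 19458 genes with a mean of at least 10. Of the 32 collagens 30 were tested (Col6a1 and Col6a4 were under this level). With acetate 26 of the 30 rose and none fell at an adjusted p under 0.05. In all genes tested 88.2% rose. The median log2 change was 0.68 in the collagens and 0.63 in all genes, so the collagens shared in a rise of the whole table. Without the etomoxir + SB204990 library of set 2, 30 of 30 rose, beside 98.5% of all genes. The calls depended on the scaling. Median-of-ratios scaling sets the typical gene to no change. With it 0 of 30 passed, beside 0.0411% of all genes, and the medians were 0.05 and 0.00. At an unadjusted p under 0.05 it was 5 of 30, beside 2221 of the 19458 genes. With scaling to the total sum 0 of 30 passed as well, beside 0.216% of all genes, with a collagen median of 0.06. The share of reads times the factor keeps the spike-in. With it 0 of 30 passed (0% of all genes), although the median was still 0.48, beside 0.43 in all genes. On the reads recovered from the values, edgeR called 26 of 30 higher (87.6% of all genes) and DESeq2 25 (85.9%).

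**Figure D1:**
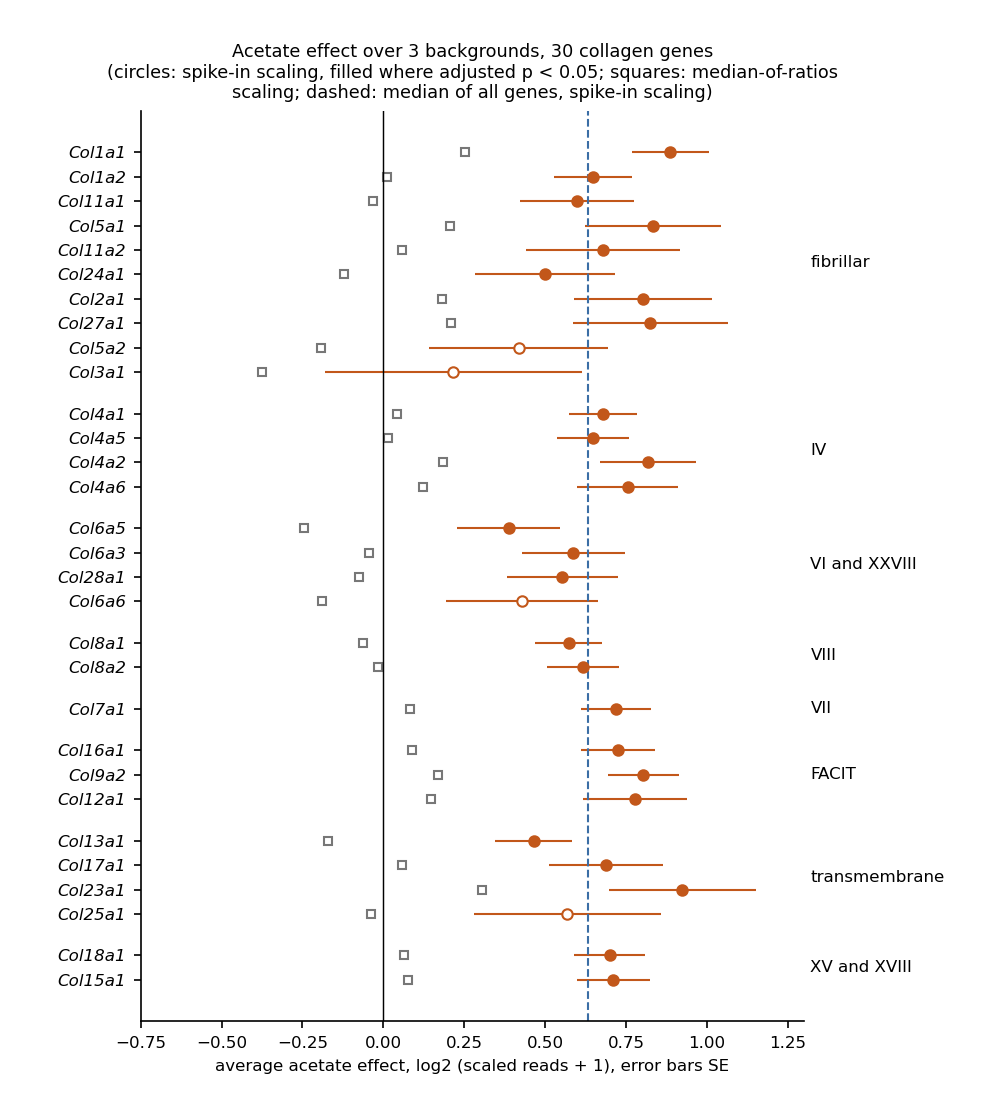
Average acetate effect (log2, with standard error) for the 30 tested collagen genes, filled where the adjusted p was under 0.05, with the value under median-of-ratios scaling as grey squares and the median of all genes as a dashed line. All 30 points lie above 0, between 0.22 in Col3a1 and 0.92 in Col23a1, and the grey squares lie around 0.

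Among the fibrillar genes, 8 of 10 rose with a median of 0.66, beside 88.2% of all genes, and 10 of 10 without the etomoxir + SB204990 library of set 2. Col1a1, which encodes the alpha1 chain of type I collagen, had 487 and 566 scaled reads with vehicle, 546 and 476 with etomoxir, and 299 and 441 with etomoxir + SB204990 (set 1 and set 2). With acetate the values were 854 and 874, 1125 and 977, and 602 and 771 in the same order. Every library with acetate was above every library without it. The average change was 0.89 ± 0.12 (log2, SE), or 1.85-fold (adjusted p = 1.44e-05), and the change between libraries of the same set ranged from 1.55 to 2.06-fold. Under median-of-ratios scaling the change of Col1a1 was 0.25 (adjusted p = 0.0827), the lowest adjusted p among the collagens there.

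Col1a2, the partner chain of Col1a1 in type I collagen, rose by 0.65 ± 0.12 (adjusted p = 5.34e-05), from 285 to 478 scaled reads across the libraries without acetate to 470 to 813 across those with it. These ranges overlapped, since etomoxir + SB204990 + acetate in set 1 lay below the vehicle libraries. Col5a1 had a low level, of 34.3 to 80.0 scaled reads without and 63.4 to 134 with acetate. Its average change was 0.83 ± 0.21 (adjusted p = 0.000902), and the change within a set ran from 1.01 to 2.63-fold. The highest of the libraries without acetate was again etomoxir + SB204990 in set 2. The Col5a1 start itself lay in the 8430 bp interval named after 2810430I11Rik (chr2:27885232-27893661), whose GC-rich promoter is shown above. That interval had a mean of 434.7 scaled reads and changed by 0.91 ± 0.11 (adjusted p = 5.36e-13). None of its reads counted in the Col5a1 sum. Col3a1 and Col5a2, whose products join fibres of types I and V, did not pass, at 0.22 ± 0.40 (adjusted p = 0.597) and 0.42 ± 0.28 (adjusted p = 0.152). Col3a1 had 9.82 and 18.2 scaled reads with vehicle, 8.0 and 8.59 with etomoxir, and 7.57 and 69.0 with etomoxir + SB204990. It had 12.1 and 24.1, 18.0 and 18.2, and 12.3 and 15.6 with acetate. The value of 69.0 stood far above all others, and without its library both Col3a1 and Col5a2 passed. None of the Col3a1 intervals overlapped the gene, whose AT-rich promoter is shown above.

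All 4 type IV genes rose, beside 88.2% of all genes. Col4a1 had 7075 and 8364 scaled reads with vehicle, 8959 and 9073 with etomoxir, and 6256 and 7813 with etomoxir + SB204990. With acetate it had 10734 and 11038, 15460 and 15118, and 10306 and 13885. The 2 ranges did not overlap, and the average change was 0.68 ± 0.11, or 1.60-fold (adjusted p = 1.77e-05). Col4a2, whose sum does not include the shared start interval, changed by 0.82 ± 0.15 (adjusted p = 4.37e-05), again with no overlap, from 200 to 358 scaled reads without acetate to 370 to 654 with it. The paired X-linked genes Col4a5 and Col4a6, minor basement membrane chains, changed by 0.65 ± 0.11 and 0.76 ± 0.16. The interval over both of their starts (chrX:141472274-141478656) changed by 0.77 ± 0.14 (adjusted p = 3.31e-07).

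**Figure D2:**
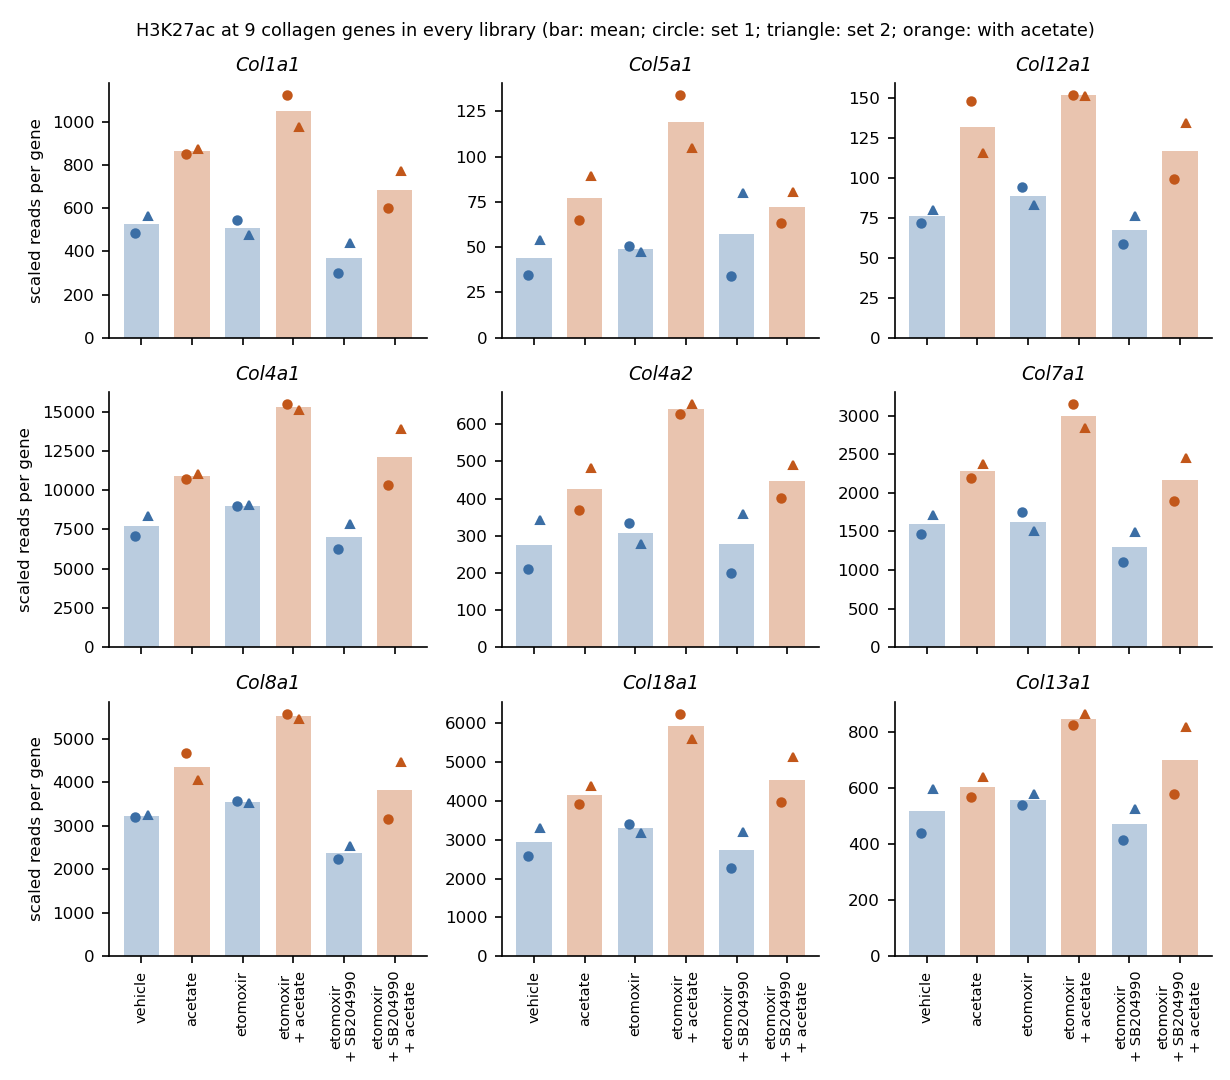
Scaled reads per gene in each library for 9 collagen genes, with set 1 as circles, set 2 as triangles, bars at the group mean from 0, and treatments with acetate in orange. The acetate libraries of Col1a1, Col4a1, Col4a2, Col7a1, Col12a1 and Col18a1 all lie above the libraries without acetate, while those of Col13a1, Col8a1 and Col5a1 overlap them.

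Both type VIII genes and Col7a1 rose, beside 88.2% of all genes. Col8a1, found beneath endothelial and other cells, had 2226 to 3575 scaled reads without and 3162 to 5578 with acetate, which overlap. Its change was 0.57 ± 0.10, or 1.49-fold (adjusted p = 4.4e-05), and -0.06 under median-of-ratios scaling. Its signal lay mostly (76.4%) in an 84783 bp intronic interval (chr16:57661209-57745991), beside the start interval with the GC-box promoter shown above. Col7a1, whose product anchors epithelium to the tissue below, had 1472 and 1717 scaled reads with vehicle, 1750 and 1501 with etomoxir, and 1098 and 1487 with etomoxir + SB204990. The acetate values were 2198 and 2370, 3149 and 2843, and 1893 and 2448. No acetate library of Col7a1 fell to the level of the others, and the change was 0.72 ± 0.11, or 1.65-fold (adjusted p = 1.58e-05). Signal of Col7a1 and of the other starts under its interval could not be told apart.

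All 3 FACIT genes with an interval rose, with a median of 0.78, beside 88.2% of all genes and a median of 0.63. Col12a1, a fibre-associated collagen of dense connective tissue, had 72.0 and 80.0 scaled reads with vehicle, 94.3 and 83.0 with etomoxir, and 58.9 and 76.0 with etomoxir + SB204990. With acetate it had 148 and 115, 152 and 152, and 99.6 and 134. The groups did not overlap, and the average change was 0.78 ± 0.16, or 1.71-fold (adjusted p = 0.000136). With no inhibitor, etomoxir and etomoxir + SB204990 the change was 0.78, 0.77 and 0.78. Nearly all of the signal (95.8%) lay in 1 interval over the start (chr9:79717176-79720090), which changed by 0.81 ± 0.15. Col16a1, which associates with several kinds of fibre, changed by 0.72 ± 0.11, and Col9a2, a chain of cartilage type IX collagen, by 0.80 ± 0.11. The Col9a2 value is that of the interval over the Smap2 start.

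Both multiplexin genes rose. Col18a1, which encodes the precursor of endostatin and lies in basement membranes, had 14 intervals and 2271 to 3413 scaled reads without acetate. With acetate it had 3928 to 6243, with no overlap, a change of 0.70 ± 0.11 (1.62-fold, adjusted p = 1.88e-05). Col15a1, its relative, changed by 0.71 ± 0.11 (adjusted p = 1.83e-05), and 98.5% of its signal lay in a single intronic interval (chr4:47290598-47317275) that covered 1 annotated internal transcript start but not the first base of the gene. In type VI and its relatives 3 of 4 rose, among them Col6a5 by 0.39 ± 0.16 (adjusted p = 0.0266), the smallest change that passed, which was -0.24 under median-of-ratios scaling. In the transmembrane collagens 3 of 4 rose. Beside these counts stand 88.2% of all genes, and without the etomoxir + SB204990 library of set 2 both classes gave 4 of 4.

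Col13a1, a transmembrane collagen of cell adhesion sites, had 440 and 597 scaled reads with vehicle, 537 and 578 with etomoxir, and 414 and 525 with etomoxir + SB204990. With acetate the values were 569 and 639, 825 and 864, and 580 and 818. The ranges overlapped, and the change was 0.46 ± 0.12, or 1.38-fold (adjusted p = 0.00108), with a change within a set of 1.07 to 1.56-fold. This was below the median of all genes, and under median-of-ratios scaling the value was -0.17. Col17a1, the hemidesmosome collagen of epithelial cells, changed by 0.69 ± 0.18 (adjusted p = 0.000997). Col23a1 had the largest average change (0.92 ± 0.23, adjusted p = 0.000726) at a low mean of 38.9 scaled reads. Col25a1, the fourth transmembrane gene, did not pass (0.57 ± 0.29, adjusted p = 0.0659).

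In 12 of the 30 collagens all 6 libraries with acetate lay above all 6 without, which is 40.0% beside 39.3% of all genes: Col1a1, Col4a1, Col4a2, Col4a6, Col7a1, Col8a2, Col9a2, Col12a1, Col16a1, Col18a1, Col23a1 and Col27a1. The share of collagens was thus near that of the whole table. Without the etomoxir + SB204990 library of set 2 the count was 15, beside 46.8% of all genes. These counts, like each statement here on overlap, set the scaled values of both sets side by side, and the factors may have been scaled within each set. Between libraries of the same set, 26 of 30 collagens were higher with acetate in 6 of 6 pairs (84.2% of all genes), the exceptions being Col3a1, Col5a2, Col24a1 and Col25a1. Of the 84 collagen intervals with a mean of at least 10, 67 rose and none fell, with 77.2% of all 63903 intervals rising. The medians were 0.67 and 0.64. Without the etomoxir + SB204990 library of set 2, 82 of 84 rose, beside 94.8% of all intervals. Acetate with etomoxir raised 46 of the 84 (56.4% of all) and acetate with etomoxir + SB204990 raised 29 (27.4% of all). Acetate against vehicle raised 0 with limma (0.0955% of all). At an unadjusted p under 0.05 it was 29 of the 84, beside 16905 of the 63903 intervals. Of the 9 promoter intervals 7 were tested and all 7 rose, with a median of 0.81 beside 0.63 for all promoter intervals, of which 88.0% rose. Of the 13 different intervals over collagen starts, 12 rose, beside 77.2% of all intervals. The share over the start intervals of all genes was not taken. The one that did not pass was the Gm48276 interval at the Col6a1 start, at 0.41 (adjusted p = 0.0889).

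Within the Col1a1 locus the signal was greatest upstream of the gene. The interval at chr11:94911250-94921617 held 53.2% of the Col1a1 sum, the one at chr11:94925565-94934595 held 31.1%, and the one over the start (chr11:94935114-94938604) 11.7%. Only 14.1% of the sum overlapped the gene. The start interval had group means of 57.3, 58.6 and 48.1 scaled reads with vehicle, etomoxir and etomoxir + SB204990, and 100.2, 122.8 and 82.2 with acetate added. Its change was 0.90 ± 0.17. The upstream intervals changed by 0.85 ± 0.12 and 0.94 ± 0.13, within the errors of the start. A short interval between them (chr11:94923804-94924538), with a mean of 11, changed by 1.36. The intronic interval (chr11:94948272-94949137) did not pass, at 0.48.

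**Figure D3:**
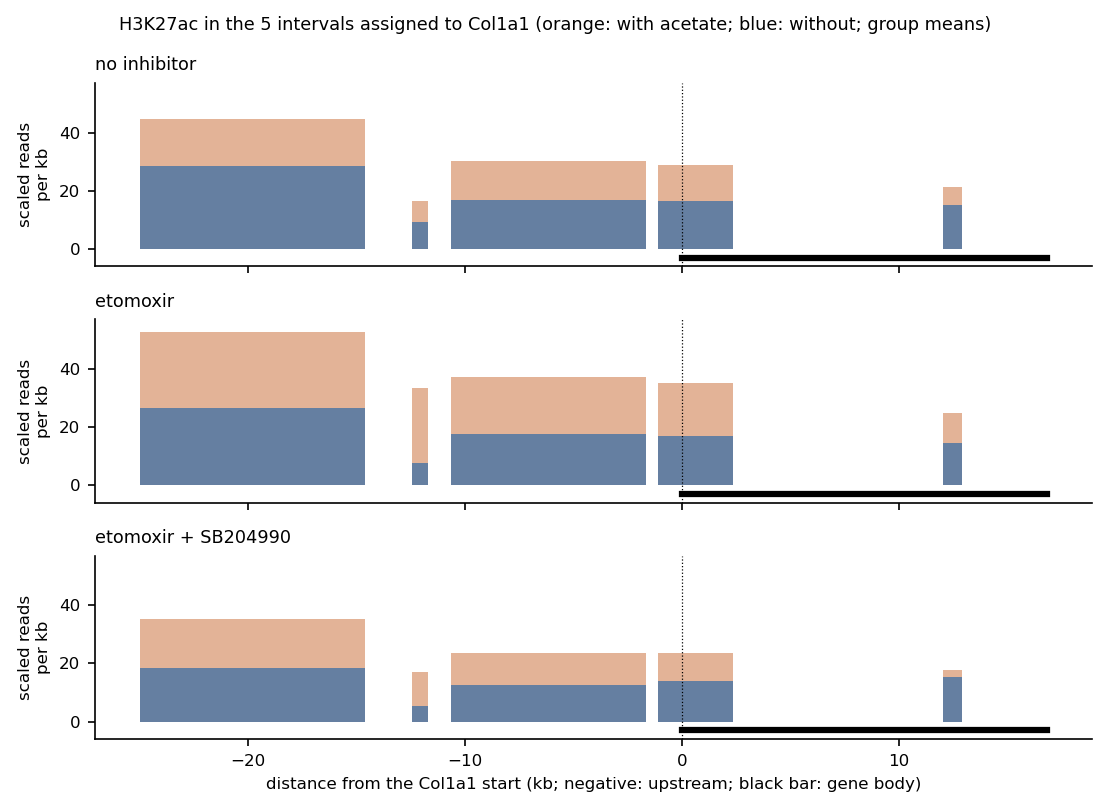
Group mean H3K27ac signal (scaled reads per kb) of the 5 Col1a1 intervals by distance from the gene start in kb, in 1 panel per inhibitor background, with acetate in orange and without acetate in blue. Bars start at 0, blue is drawn over orange, and each of the 5 intervals is higher with acetate in each panel.

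Taken one background at a time, the collagen counts differed. The 3 acetate comparisons share no libraries, only the estimate of spread. Acetate against vehicle gave 0 of 30 collagens past the threshold with limma (0% of all genes), 0 with edgeR and 12 with DESeq2 (25.6% of all genes). At an unadjusted p under 0.05 it was 17 of 30 with limma, beside 8341 of 19458 genes. The median was 0.56, beside 0.48 in all genes, and in 26 of 30 both acetate libraries lay above both vehicle libraries (84.2% of all genes). The lowest adjusted p was 0.101, at a change of Col1a1 of 0.72 ± 0.21. When either etomoxir + SB204990 library was left out of the fit, 19 of 30 passed, beside 61.1% or 61.2% of all genes. Those libraries are not part of this comparison and enter it only through the shared estimate of spread.

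With etomoxir, acetate raised 22 of 30 collagens and lowered none, beside 78.2% of all genes raised. The median was 0.83 and that of all genes 0.79, and in 30 of 30 both acetate libraries were above both etomoxir libraries (98.3% of all genes). Col5a1 changed by 1.25 ± 0.37, or 2.38-fold (adjusted p = 0.00557), Col4a2 by 1.07 ± 0.26 (adjusted p = 0.00293) and Col1a1 by 1.04 ± 0.21 (2.05-fold, adjusted p = 0.00291). Without the etomoxir + acetate library of set 1, the count was 10, beside 28.8% of all genes.

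With etomoxir + SB204990, acetate raised 16 of 30 and lowered none, beside 57.7% of all genes raised. The medians were 0.66 in the collagens and 0.64 in all genes, and 20 of 30 showed no overlap between the groups (70.3% of all genes), or 30 of 30 without the library of set 2 (99.5%). Col1a1 changed by 0.91 ± 0.21 (adjusted p = 0.00653), Col16a1 by 0.81 ± 0.20 and Col4a6 by 0.83 ± 0.27. This count depended on single libraries. Without etomoxir + SB204990 in set 2, 28 of 30 rose (91.4% of all genes). Without that of set 1, 7 rose and 1 fell, Col3a1, by 2.24 on the log2 scale (adjusted p = 0.000622), beside 23.3% of all genes in either direction. Without etomoxir + SB204990 + acetate in set 2, 0 of 30 passed (10 unadjusted), beside 0% of all genes.

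**Figure D4:**
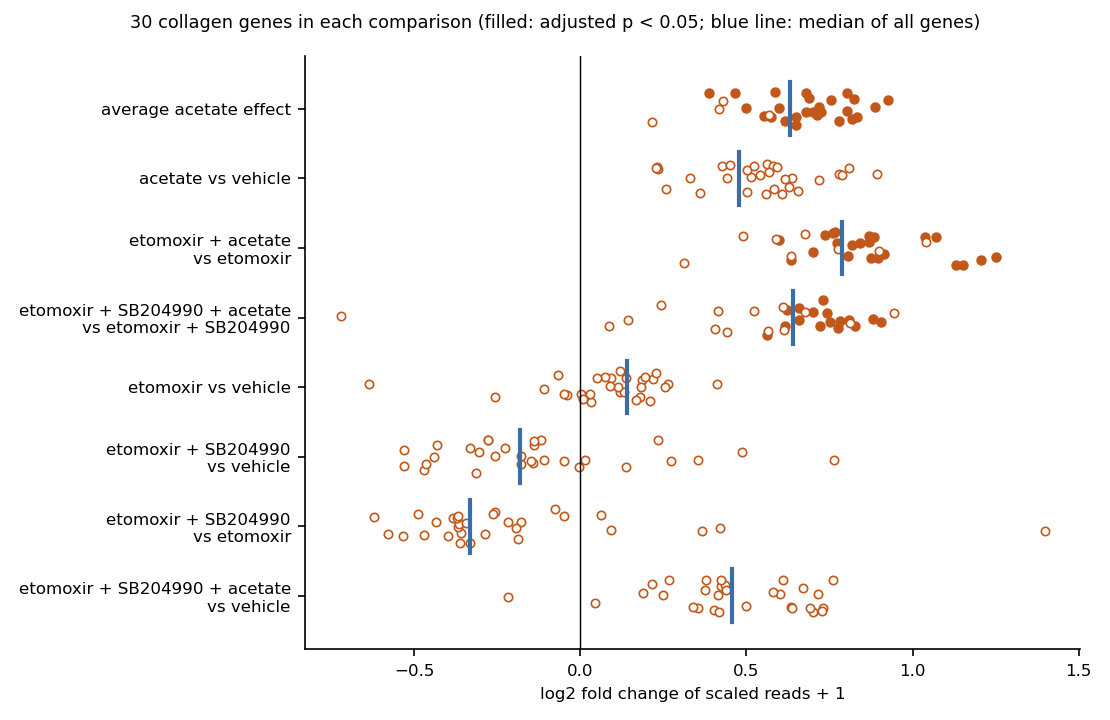
Log2 change of the 30 tested collagen genes in each of 8 comparisons, filled where the adjusted p was under 0.05, with the median of all genes as a blue line. The acetate comparisons lie mostly above 0 and those of inhibitors alone around or below it, and in each the collagen points lie around the blue line.

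Whether the acetate response differed with the inhibitors was tested as an interaction, against the response in cells with no inhibitor. No collagen passed with limma for etomoxir or for etomoxir + SB204990 (0 of 30 in each, 0 unadjusted, 0 with edgeR and 0 with DESeq2, and 0% of all genes). The collagen medians of the difference were 0.29 and 0.18, beside 0.30 and 0.16 in all genes. The unequal counts above are therefore not shown to be unequal responses. Without the etomoxir + SB204990 library of set 1, which leaves 1 library in that treatment, the Col3a1 difference for etomoxir + SB204990 was -2.57.

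The inhibitors without acetate changed no collagen past the threshold. Etomoxir against vehicle gave 0 of 30 (0 unadjusted, 0 with edgeR and 0 with DESeq2), beside 0.0154% of all genes raised, with a median of 0.12 and 0.14 in all genes. Both etomoxir libraries lay above both vehicle libraries in 9 of 30 (40.2% of all genes) and below them in 2, Col3a1 and Col5a2 (3.44%). Etomoxir + SB204990 against vehicle gave 0 of 30 (0 with edgeR and 0 with DESeq2), beside 0.00514% raised and 0% lowered of all genes. The median was -0.16, and -0.18 in all genes. At an unadjusted p under 0.05 it was 5 of 30, beside 825 of 19458 genes. Both etomoxir + SB204990 libraries lay below both vehicle libraries in 8 of 30 collagens (25.5% of all genes), namely Col1a1, Col1a2, Col4a5, Col8a1, Col8a2, Col9a2, Col15a1 and Col28a1. The library of set 1 alone lay below both in 29 of 30 (91.9% of all genes). Col1a1 changed by -0.53 (adjusted p = 0.777), among the lowest log2 changes here, and Col8a1 changed by -0.44. Without the library of set 2, 6 of 30 fell (Col1a1, Col1a2, Col4a6, Col9a2, Col15a1 and Col27a1) and the median was -0.43, beside 12.3% of all genes called and a median of -0.46. Without that of set 1, Col3a1 and Col25a1 rose, by 2.28 and 1.36, and the median was 0.10, beside 5.61% of all genes called and a median of 0.11. The medians without each library had opposite signs. With 1 library left in this treatment, the other groups supplied the spread, and the lone library is assumed to vary like them.

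Adding SB204990 to etomoxir gave 0 of 30 (0 with edgeR and 0 with DESeq2), beside 0% of all genes. The median was -0.34, and -0.33 in all genes. At an unadjusted p under 0.05 it was 5 of 30, beside 4087 of 19458 genes. Both libraries were below both etomoxir libraries in 14 of 30 (47.1% of all genes). Without the set 2 library 18 of 30 fell, beside 63.8% of all genes called, and the etomoxir + SB204990 library of set 1 lay below both etomoxir libraries in 30 of 30 (96.9% of all genes). Without that of set 1 the median was -0.01 and Col3a1 alone rose, by 2.91, beside 6.09% of all genes called. Etomoxir + SB204990 + acetate against vehicle gave 0 of 30, beside 0.38% of all genes raised, with a median of 0.43 and 0.46 in all genes. At an unadjusted p under 0.05 it was 10 of 30, beside 7153 of 19458 genes. With edgeR it was 0 and with DESeq2 4, whose share of all genes is given in the last section. This comparison shares the vehicle libraries with those above. Both of its libraries lay above both vehicle libraries in 23 of 30 (75.5% of all genes). At the level of intervals 4 of 84 collagen intervals rose (1.68% of all), in Col4a1, Col16a1 and Col18a1. Without etomoxir + SB204990 in either set, a library outside this comparison, 16 of 30 rose, beside 50.1% or 50.3% of all genes.

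The share of reads does not use the spike-in factor. Collagen intervals took 0.283% to 0.304% of the reads in intervals. Within a set the share was higher with acetate in 6 of 6 pairs of libraries, by 1.02 to 1.06 times. Without Col4a1 it was 0.175% to 0.188% and again higher in 6 of 6, by 1.02 to 1.05 times. The libraries with and without acetate overlapped in both shares, and the etomoxir + SB204990 library of set 2 (0.286%) was among the lowest. In 8 of 30 collagens the gene's own share was higher in 6 of 6 pairs, beside 6.5% of all genes: Col1a1, Col4a1, Col4a6, Col7a1, Col9a2, Col15a1, Col16a1 and Col18a1. In Col13a1 and Col6a5 it was higher in 0 of 6, beside 5.27% of all genes. These counts are descriptions, and each library enters 1 pair. The pairs follow the suffix of the library names, which was not shown to pair the libraries.

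**Figure D5:**
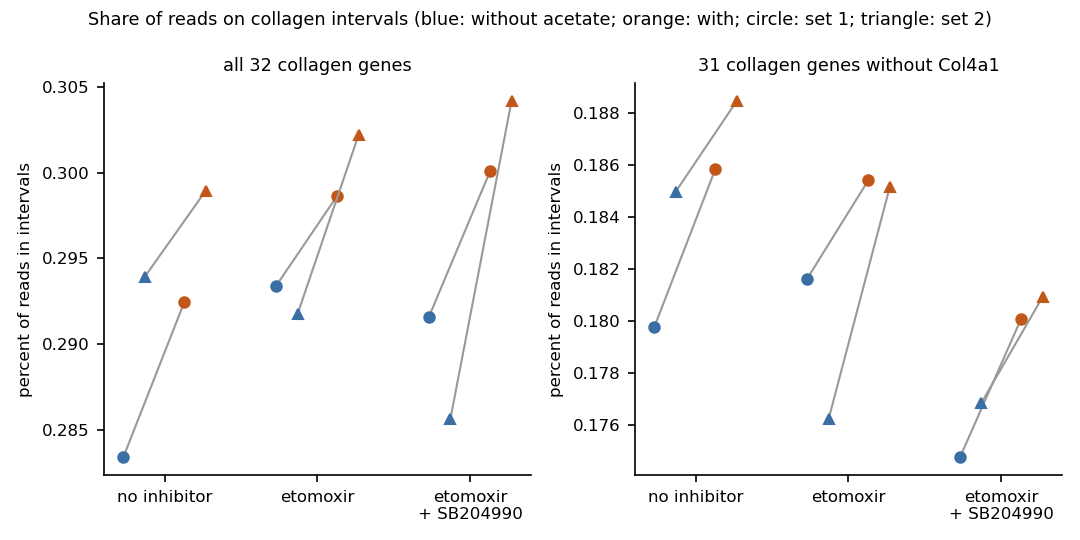
Percent of reads in intervals that lay in collagen intervals, for all 32 genes and without Col4a1, with lines joining libraries of the same set and background with and without acetate (the vertical axis does not start at 0). Each of the 6 lines rises, by 1.02 to 1.06 times for all collagens, and the 2 sides overlap.

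Genes that act on collagen moved with the collagens and with the table in the average acetate effect (88.2% of all genes raised). Of the enzymes that hydroxylate and glycosylate the chains, 14 of 14 tested rose, with a median of 0.63, among them Plod1 (0.81), a lysyl hydroxylase, and P4hb (0.60), a subunit of prolyl hydroxylase. Of the genes for folding and secretion 8 of 9 rose with a median of 0.62, among them Serpinh1 (0.72), the collagen chaperone. Of the genes for cleavage and cross-linking outside the cell 10 of 12 rose with a median of 0.66, among them Lox (1.03), the enzyme that starts cross-linking, Loxl1 (0.79) and Bmp1 (0.78), a procollagen proteinase. Of the receptors 8 of 8 rose with a median of 0.63, among them Itgb1 (0.61) and Itga2 (0.49), integrin subunits that bind collagen, and Ddr1 (0.76), a receptor tyrosine kinase. Plod1, Lox and Ddr1 had the highest changes of their lists. Some genes of these lists with higher means changed less, such as Ppib (0.46), Loxl4 (0.66) and Ddr2 (0.61). With median-of-ratios scaling 0.0411% of all genes rose, so these counts too depend on the scaling. Without the etomoxir + SB204990 library of set 2, 14 of 14, 9 of 9, 12 of 12 and 8 of 8 rose, beside 98.5% of all genes.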

How the data were processed

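H3K27ac ChIP-seq was measured in 12 libraries of 4T1 cells. Per the labels and the study's methods, the authors ran paired-end reads through nf-core/chipseq against GRCh38 and mm10 joined into 1 genome, derived a scaling factor for each library from its percentage of human spike-in reads, and divided the factors by the highest. The deposited values are signal: the read count of an interval times the factor of its library. The factor was 1 in 2 libraries, 1 in each set, so there the deposited values are plain counts, and the factors may have been scaled within each set. After division by the factor, 100% of values above 0 came out as whole reads (tolerance 0.01). Whether intervals were called per library or on pooled libraries is not given in the sources used here. A factor multiplies all intervals of a library alike, so its error does not average out over genes.

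Values were summed per gene symbol as assigned by the authors and tested as log2(value + 1) with limma 3.58.1 (R 4.3.3) in 1 fit of 6 group means with an intensity trend, over genes or intervals with a mean of at least 10. The pseudocount understates changes of low genes. Calls were made at a Benjamini-Hochberg adjusted p under 0.05 over all features of a comparison. Recovered reads were also tested with edgeR 4.0.16 (quasi-likelihood) and DESeq2 1.42.0. No per-sample column was left unused (0). Promoter windows and their letters came from RefSeq, gene positions from GENCODE M21. Reads in intervals (7179165 to 16676442 per library) set the counting precision.

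Genes were named by rule: Col1a1 and Col12a1, the 6 members with the highest mean, up to 5 called members with a mean of at least 50 and the largest change per comparison, and the 3 largest and 3 smallest average changes at that mean. Other members named in the text (such as Col1a2, Col3a1, Col4a5, Col5a2, Col23a1 and Col25a1) were chosen after their values were seen. The members and gene lists were chosen with earlier results of these data known. Alternatives covered the scaling, the tool, the pseudocount, the filter, the intervals used, the set as a block and leaving out each library. A marker list of another cell type is not reported here.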

Additional observations from a re-analysis of the deposited data

How the results depend on the processing

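Over 26 alternatives, the values of single collagens kept their direction and their side of the threshold in 642 cases, lost the call in 99, gained it in 15 and turned in 12. The median average acetate change of all genes was 0.63 with spike-in factors, 0.00 with median-of-ratios, 0.01 with total-sum and 0.43 with share of reads times factor. Under these 3 rescalings the count of collagens past the threshold was 0 for the average acetate effect, for acetate with etomoxir and for acetate with etomoxir + SB204990, and 0 for collagen intervals, although with share of reads times factor the collagen medians were 0.48, 0.86 and 0.24 in these 3 comparisons. Median-of-ratios scaling puts the median of all genes at 0.00. With it 12 of the 30 collagens had an average acetate change below 0, and 18 lay above the median of all genes. Among the genes named by rule, those that turned (median-of-ratios and total-sum) were Col8a1 (-0.064 and -0.054), Col28a1 (-0.076 and -0.066), Col13a1 (-0.17 and -0.16) and Col6a5 (-0.24 and -0.23). With median-of-ratios scaling Col12a1 was at -0.0096 for acetate with etomoxir. Its change with etomoxir + SB204990 against vehicle turned to 0.042 (total-sum) and 0.095 (share times factor), and leaving out 1 library at a time gave -0.36 to 0.0019, the latter without the etomoxir + SB204990 library of set 1.

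Only intervals within 5 kb of the start gave 9 genes to test, and the counts were 9 (average, 91.5% of all genes), 3 (acetate against vehicle, 10.8%), 8 (with etomoxir, 79.5%), 7 (with etomoxir + SB204990, 60.2%) and 3 (etomoxir + SB204990 + acetate against vehicle, 7.47%). Collagen intervals with a mean of at least 50 gave 38 of 38 (99.1% of all). For acetate against vehicle, DESeq2 gave 12 (25.6% of all genes), a fit of only those libraries 18 (61.5%), and intervals overlapping the gene 15 (52.8%, chosen after seeing the data). For etomoxir + SB204990 + acetate against vehicle, DESeq2 gave 4 (23.5%) and intervals overlapping the gene 7 (36.2%). A fit of only its own libraries gave 0 for acetate with etomoxir + SB204990. The cause of these changes was not tested.

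With the set as a block, counts were 27 (average, 90.3% of all genes), 11 (acetate against vehicle, 20.0%), 25 (with etomoxir, 83.1%), 18 (with etomoxir + SB204990, 65.0%), 4 (etomoxir + SB204990 + acetate against vehicle, 14.3%) and 71 intervals (81.2%), and 0 in the others. The pairing was not borne out: of 15 correlations between treatments of the difference between sets, 4 were over 0.1 (-0.22 to 0.60).

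Leaving out 1 library at a time gave, with the range of the share of all genes, 23 to 30 (average, 81.2% to 98.5%), 0 to 19 (acetate against vehicle, 0% to 61.2%), 10 to 27 (with etomoxir, 28.8% to 92.2%), 0 to 28 (with etomoxir + SB204990, 0% to 91.4%), 0 to 6 (etomoxir + SB204990 against vehicle, 0% to 12.3%), 0 to 18 (against etomoxir, 0% to 63.8%), 0 to 16 (etomoxir + SB204990 + acetate against vehicle, 0.0103% to 50.3%), 0 to 1 (change of the acetate response by etomoxir + SB204990, Col3a1, 0% to 3.37%) and 54 to 82 intervals (58.2% to 94.8% of all intervals). Etomoxir against vehicle and the change of the response by etomoxir stayed at 0. Beyond the libraries named with the results, leaving out etomoxir + SB204990 + acetate in either set gave 6 for acetate against vehicle (11.9% of all genes), and in set 1 gave 9 for its comparison with vehicle (31.8%). Changes below what 2 libraries a group and these depths resolve were not detectable.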
